A study of Homo sapiens with 6 samples.

Results

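The genes described here encode the machinery that docks, primes and fuses synaptic vesicles: 54 genes chosen by name, namely complexins, SNAREs and their regulators, synaptotagmins, synapsins, vesicle membrane proteins and active-zone proteins. All 54 were found by symbol among the 58174 genes of the table, and 37 of them had a mean FPKM (fragments per kilobase of gene, scaled to library size) of at least 0.5 over the 6 libraries and were tested. The mRNA-seq was made in KNS42, an established cell line of a pediatric glioblastoma (GBM), a brain tumor with glial features. The cells were kept in DMEM with serum and harvested 72 h after transfection with either a control siRNA (siC, n = 3) or siRNAs directed against MSI1 (siMSI1, n = 3). MSI1 is an RNA-binding protein of neural stem and progenitor cells, and the comparison asked how its depletion alters mRNA abundance. All 6 libraries thus come from 1 cell line in culture, and both groups went through transfection.

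In neurons, a vesicle fuses when a VAMP on its membrane zippers with a syntaxin and a SNAP25-family protein on the plasma membrane. Complexins hold the assembled complex ready, synaptotagmins trigger fusion upon calcium entry, UNC13 and RIM proteins prime vesicles at the active zone, and NSF with its SNAP adaptors takes the complex apart again. Many of these genes are best known from neurons, and several of them are classical targets of the repressor REST, whereas close relatives such as SNAP23, SNAP29, STX4, VAMP3 and SYPL1 serve secretion and membrane traffic in most cell types.

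The libraries held 14448513 to 18024080 reads on genes in siC and 13087025 to 14700593 in siMSI1, as recovered from FPKM and gene length, so that 3 reads on a 2 kb gene amount to between 0.0829 and 0.114 FPKM. MSI1 had 63.7, 61.9 and 66.9 FPKM in the siC libraries, against 12.1, 12.3 and 11.2 FPKM upon knockdown, or 18.5% of the control. Among markers of glial and progenitor cells, 9 of 10 were measured well enough to be tested, with a summed level of 1551 to 1615 FPKM in siC and 1288 to 1387 FPKM in siMSI1. Most of this sum came from VIM, with a mean of 1035 FPKM in siC and 865 FPKM in siMSI1. Past an adjusted p of 0.01 (limma), SOX9, FABP7 and CD44 fell, with CD44 passing in 1 of the 6 fits without 1 library. GFAP, an intermediate filament of astrocytes, passed too and rose from 1.63 ± 0.335 to 4.61 ± 0.450 FPKM (SD, n = 3 per group). VIM, NES and SOX2 did not pass, with log2 fold changes of −0.26, −0.16 and −0.23, nor did SLC1A3 and PDGFRA, with 0.23 and 0.20. All 9 had an unadjusted p under 0.05 (limma). None of the 9 overlapped between the groups, and 42.8% of all tested genes did not. OLIG2 was at 0. Of 17 neuronal markers, 4 were tested and 0 passed the threshold (limma with Benjamini-Hochberg adjustment), with 2 of them, GAP43 and MAP2, at an unadjusted p under 0.05 and called by voom, limma's weighted fit on the recovered reads. Over all 15069 tested genes, voom called 2690, and those at an unadjusted p under 0.05 (limma) were not counted. They were common, since an unadjusted p of 0.04999 (the endocytosis gene AP2A1) went with an adjusted p of only 0.131 (limma). The neuronal markers summed to 131.2 to 135.9 FPKM in siC and 148.3 to 166.1 FPKM in siMSI1, mostly from GAP43, and RBFOX3 was at 0. Among the untested neuronal markers, MAPT had 47 to 56 reads per siC library and 19 to 21 per siMSI1 library. ELAVL3 had 15 to 35 against 5 to 9, SLC12A5 38 to 56 against 16 to 31, and NEFM 2 to 6 against 0 to 2. In FPKM, these 4 genes were lower in siMSI1 with no overlap between the groups, though NEFM had 2 reads in a library of either group. The rest of the 13 untested neuronal markers overlapped, among them NEFL at 102% and NCAM1 at 93.4% of the control. Oligodendrocyte markers summed to at most 0.0335 FPKM, with MOG, MAG and OLIG1 at 0, and of 7 markers of blood, endothelium and epithelium only KRT18 was high enough to be tested, at an unadjusted p of 0.0257. The endothelial markers CDH5 (at most 3 reads in a control library, 9 to 22 upon knockdown) and PECAM1 (at most 1 read, against 5 to 8) did not overlap between the groups. CD68 (5 to 8 reads in siC, 8 to 16 in siMSI1) did not overlap in FPKM either, though a library of either group had 8 reads. PTPRC, CD3E and EPCAM, also untested, overlapped, with EPCAM at 101% of the control. Whether the shifts in these markers have a part in the results below was not tested, and in bulk RNA fewer cells that express a gene and less RNA per cell cannot be told apart.

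Upon MSI1 knockdown, 10 of the 37 tested exocytosis genes passed an adjusted p-value of 0.01, against 11% of all 15069 tested genes. CPLX1, STX2, VAMP2, UNC13A, SYP, SYN1, SYT4 and STX3 were lower in siMSI1, so 8 of 37 (21.6%) were lower where 5.83% of all tested genes were. The genes were chosen with earlier results of these data known, so this difference was not tested. SYT4 was among the 37 only through its siC values, and with a mean FPKM of at least 1 required it was not tested, which left 7 lower of 36. STX1A and DNM1 were higher, which is 2 of 37 (5.41%) where 5.15% of all tested genes were. This split of 8 lower and 2 higher depended on the fit: it was 9 and 5 with voom, 10 and 6 with voom and median-of-ratios size factors, 15 and 9 with voom and a replicate block, 12 and 8 with a GC correction chosen after seeing the data, and 13 and 6 at an adjusted p of 0.05. The values of the siMSI1 libraries lay entirely above or below those of siC for 23 of the 37 genes (62.2%), and for 42.8% of all tested genes. The fold changes, given on the scale of log2(FPKM + 0.1), had a median of −0.13 over the 37 genes and 0.00 over all tested genes, and 22 of the 37 lay below 0. The count of 10 was 5 without siC replicate 1 or without siMSI1 replicate 1, 6 without siC replicate 2 or 3, and 7 without either of the other libraries. CPLX1, STX2, VAMP2, UNC13A and STX1A were the 5 that passed in all 19 alternative fits. In the plot of fold changes against abundance, CPLX1 stands apart as an abundant gene with a large fall.

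**Figure D1:**
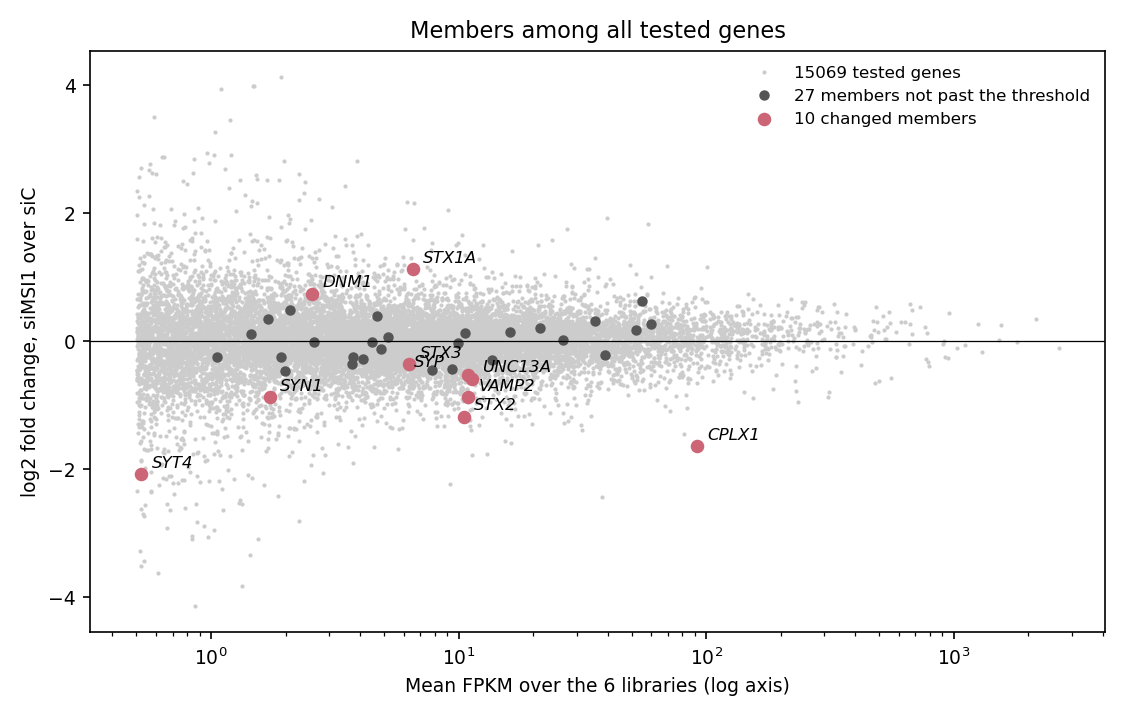
Each dot is 1 of the 15069 tested genes, with its mean FPKM over the 6 libraries on a log axis and its log2 fold change of siMSI1 over siC on the vertical axis. Dark dots are the 27 exocytosis genes that did not pass the threshold and red dots the 10 that did, among which CPLX1 is the most abundant and SYT4 the least.

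These tests were made with limma on all tested genes and adjusted by Benjamini-Hochberg. The labels do not say whether the 3 libraries of a group came from separate cultures, so the p-values may measure technical spread only. For a single gene, an exact permutation test of 3 against 3 libraries could not go below p = 0.1.

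Upstream sequence is shown for 3 of the changed genes: SYN1, a textbook REST target, STX1A, the gene with the largest rise, and SYT4, the tested gene with the lowest level. The windows are the 250 bases before the first start that RefSeq lists for the gene on GRCh38.p14, read 5′ to 3′ on the strand of the gene. Such a window was found for 47 of the 54 genes and for 9 of the 10 changed genes, all but CPLX1. The 19 alternative starts listed for these genes were left out. Among the changed genes, the windows of DNM1, STX3 and VAMP2 lie inside the gene as GENCODE gives it, so they do not precede its outermost start. Capitals mark matches on either strand to the RE1 half-sites TTCAGCACC and GGACAG, which REST binds as a pair, to the cAMP response element TGACGTCA and to the GC box GGGCGG bound by SP1.
SYN1, chrX:47619858-47620107, minus strand: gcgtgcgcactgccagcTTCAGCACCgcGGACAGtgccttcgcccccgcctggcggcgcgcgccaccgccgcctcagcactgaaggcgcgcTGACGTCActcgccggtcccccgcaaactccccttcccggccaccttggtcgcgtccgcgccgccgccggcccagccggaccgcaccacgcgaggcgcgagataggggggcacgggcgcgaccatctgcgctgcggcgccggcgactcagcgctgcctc
STX1A, chr7:73719670-73719919, minus strand: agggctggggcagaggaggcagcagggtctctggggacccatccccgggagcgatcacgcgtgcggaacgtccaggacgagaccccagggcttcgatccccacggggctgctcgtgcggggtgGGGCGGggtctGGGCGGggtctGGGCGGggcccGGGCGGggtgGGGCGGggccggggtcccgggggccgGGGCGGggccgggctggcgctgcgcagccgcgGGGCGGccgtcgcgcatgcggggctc
SYT4, chr18:43277491-43277740, minus strand: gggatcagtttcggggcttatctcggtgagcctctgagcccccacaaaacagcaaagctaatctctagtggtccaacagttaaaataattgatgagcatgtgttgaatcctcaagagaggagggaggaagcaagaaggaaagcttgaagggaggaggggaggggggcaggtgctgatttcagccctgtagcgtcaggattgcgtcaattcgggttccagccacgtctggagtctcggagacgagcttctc

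In SYN1 the left RE1 half-site lies 233 to 225 bases and the right one 222 to 217 bases before the start, and the cAMP response element lies 159 to 152 bases before it. The left half-site was found in 0.300% of all 27305 RefSeq windows of the same length and in 1 of the 47 of exocytosis genes, that of SYN1. Both half-sites together were in 22 windows (0.0806%), SYN1 included. The right half-site alone is common, with 17.2% of all windows and 12 of 47 here. The cAMP response element was in 1.77% of all windows and in those of SYN1 and STXBP3. Among the windows of tested genes, the left half-site was in 0.197%, the right one in 16.5% and the cAMP response element in 3.09%. STX1A carries 7 GC boxes within 127 bases of its start, and SYT4 has no match to any of these motifs. In the windows shown, no match overlaps another. The GC box was in 74.3% of the 35 windows of tested exocytosis genes and in 68.6% of the 9157 windows of all tested genes. A further motif, the CCAAT box (CCAAT on either strand, not in capitals), was in 17.1% of the former and 35.8% of the latter, and in 0 of the 9 windows of changed genes. A match describes the letters only, and no binding was measured. Only exact matches were counted and only this window of each gene was searched, so the lack of a match does not show that a site is absent.

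Among the complexins, small proteins that clamp and then promote SNARE-driven fusion, CPLX1 (ENSG00000168993, chr4:784957-826129, minus strand; gene coordinates here and below are those of GENCODE release 44 on GRCh38) was the most abundant of all exocytosis genes in siC. It stood at 148.3, 124.9 and 142.1 FPKM in control cells and at 40.6, 45.6 and 46.8 FPKM in siMSI1 cells. The lowest control library was thus far above the highest knockdown library. Its level in siMSI1 was 32.0% of that in siC, with a log2 fold change of −1.64 ± 0.089 (SE) and an adjusted p of 0.000167 (limma). CPLX1 supplied 21.7% to 24.8% of the summed FPKM of all 54 genes in the siC libraries and 8.19% to 8.80% in the siMSI1 libraries. That sum was 575.6 to 604.2 FPKM in siC and 495.4 to 537.8 FPKM in siMSI1. Without CPLX1 it was 449.8 to 462.1 FPKM in siC and 454.8 to 491.0 FPKM in siMSI1, and these ranges overlap. The other complexins were hardly measured: CPLX2 had at most 6 reads in a library, and CPLX3 and CPLX4 were at 0.

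**Figure D2:**
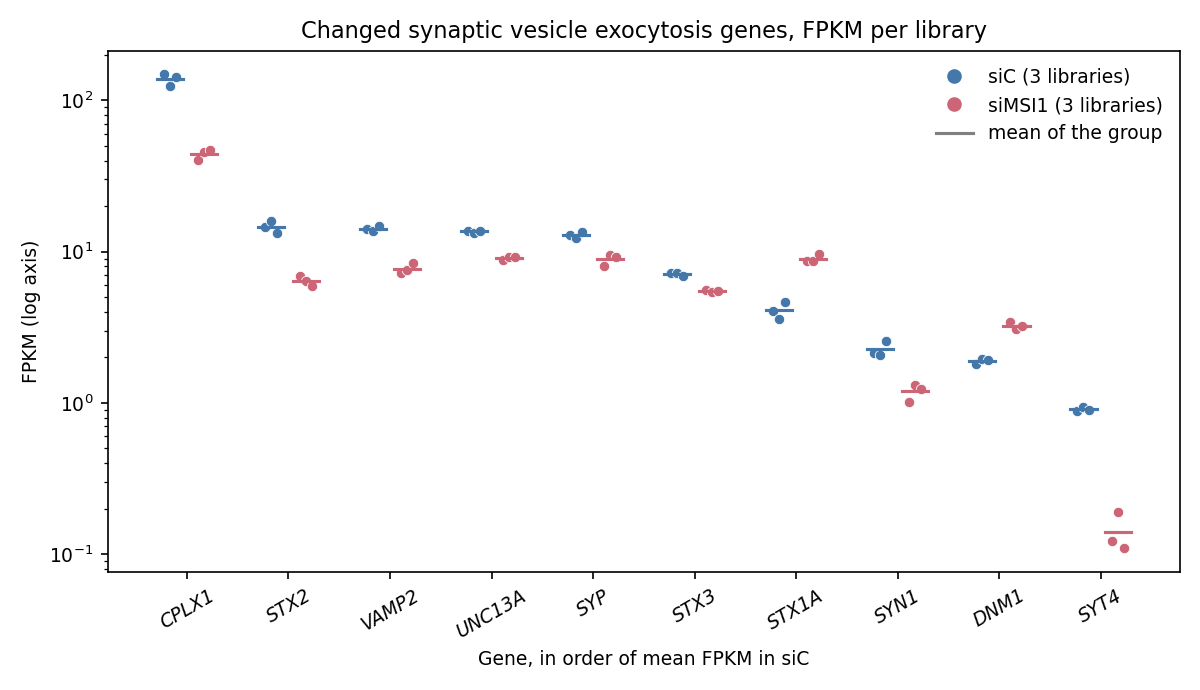
FPKM of the 10 changed exocytosis genes in each of the 3 siC libraries (blue) and the 3 siMSI1 libraries (red) on a log axis, ordered by their mean in siC, with a bar at the mean of each group. CPLX1 falls from 138.5 to 44.3 FPKM, STX1A and DNM1 rise, and in no gene do the groups overlap.

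The syntaxins of the plasma membrane, which anchor the fusion complex on the target side, moved in both directions. STX2 (ENSG00000111450, chr12:130789600-130839254, minus strand), a broadly expressed syntaxin also known as epimorphin, had 14.6, 16.0 and 13.2 FPKM in the siC libraries, against 6.87, 6.41 and 5.91 FPKM upon knockdown. The knockdown libraries were all below the controls, with a log2 fold change of −1.18 ± 0.095 (SE; adjusted p = 0.000366, limma). STX1A (ENSG00000106089, chr7:73699206-73719672, minus strand), the neuronal syntaxin of the synapse, went the other way. It stood at 4.03, 3.59 and 4.63 FPKM in control cells and at 8.69, 8.61 and 9.65 FPKM in siMSI1 cells, a log2 fold change of 1.12 ± 0.109 (SE; adjusted p = 0.000578, limma).

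STX3 (ENSG00000166900, chr11:59713456-59805882, plus strand), a syntaxin of apical membranes and ribbon synapses, fell slightly. It had 7.24, 7.21 and 6.89 FPKM in the siC libraries, against 5.61, 5.39 and 5.52 FPKM upon knockdown. The groups were narrow and apart, with a log2 fold change of −0.36 ± 0.072 (SE), but the adjusted p of 0.00999 lay at the threshold and was above it when any 1 of the 6 libraries was left out, up to 0.0552 (limma). STX4, the syntaxin of constitutive and insulin-regulated exocytosis, was the most abundant and overlapped between the groups, at 15.7, 13.9 and 16.7 FPKM in siC and 15.9, 17.9 and 17.1 FPKM in siMSI1 (log2 fold change 0.14, adjusted p = 0.283, limma).

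The changes in STX2 and STX1A altered the makeup of the family more than its size. The 4 syntaxins summed to 41.6, 40.6 and 41.4 FPKM in siC and to 37.1, 38.3 and 38.2 FPKM in siMSI1. Within that sum, STX1A had 9.90% ± 1.19 in siC and 23.7% ± 1.40 in siMSI1, and STX2 had 35.5% ± 3.70 in siC and 16.9% ± 1.54 in siMSI1 (SD, n = 3 each). STX1A was the least abundant of the 4 in every siC library. In every siMSI1 library it was second to STX4, and STX3 was the lowest. The plot of family shares shows this exchange library by library.

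**Figure D3:**
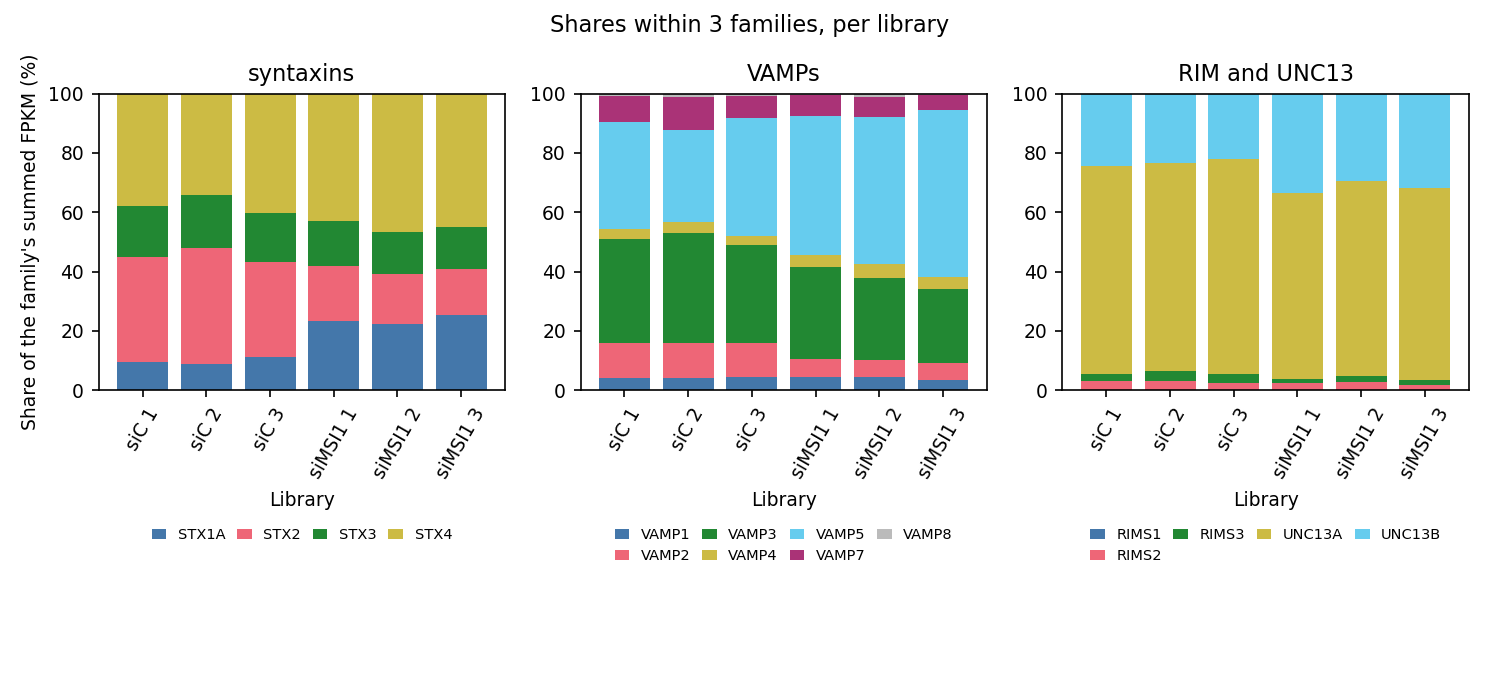
Share of each gene in the summed FPKM of the syntaxins, the VAMPs, and the RIM and UNC13 genes, as stacked bars from 0 to 100%, for each of the 3 siC and 3 siMSI1 libraries. STX1A widens from 9.90% to 23.7% of the syntaxins and STX2 narrows from 35.5% to 16.9% on average, VAMP2 narrows from 11.8% to 5.91% of the VAMPs, and UNC13A narrows from 70.8% to 64.3%.

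Of the 7 VAMPs, the SNAREs on the vesicle side, VAMP2 passed the threshold. VAMP2 (ENSG00000220205, chr17:8159149-8163546, minus strand), or synaptobrevin, is the VAMP of synaptic vesicles. It stood at 14.1, 13.7 and 14.7 FPKM in control cells and at 7.20, 7.52 and 8.35 FPKM in siMSI1 cells. This is 54.3% of the control with no overlap, a log2 fold change of −0.87 ± 0.079 (SE) and an adjusted p of 0.000506 (limma). Its share of the VAMP total was 11.8% ± 0.315 in siC and 5.91% ± 0.0793 in siMSI1 (SD, n = 3 each).

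The most abundant VAMP, VAMP5, which is known from muscle and from other membranes than synaptic vesicles, had 41.9, 35.8 and 51.4 FPKM in the siC libraries, against 56.4, 63.6 and 80.8 FPKM upon knockdown. Its groups did not overlap, but the libraries spread widely and the adjusted p of 0.0304 missed the threshold (log2 fold change 0.63, limma). VAMP3 (cellubrevin, of recycling endosomes), VAMP4 (of the Golgi and endosomes) and VAMP7 (of late endosomes and lysosomes) had log2 fold changes of −0.22, 0.40 and −0.44 with adjusted p-values of 0.0315, 0.0404 and 0.0469 (limma). VAMP1, the close relative of VAMP2 in motor neurons, was at 5.07 ± 0.637 FPKM in siC and 5.32 ± 0.439 FPKM in siMSI1 (SD, n = 3 each), with a 95% confidence interval of the log2 fold change from −0.19 to 0.33. TAPBPL, which overlaps VAMP1 on the opposite strand, rose by 0.70 on the log2 scale (adjusted p = 0.00832, limma), and counting by strand is not stated in the sources used here. VAMP8 had only 10 to 24 reads per library.

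The third SNARE of the complex comes from the SNAP25 family, and of its 3 tested genes 0 passed the threshold, 0 had an unadjusted p under 0.05 and 0 were called by voom (limma). SNAP29, an adaptor of autophagosome and endosome fusion, stood at 25.2, 27.6 and 26.1 FPKM in control cells and at 26.5, 27.6 and 25.9 FPKM in siMSI1 cells. SNAP23, the SNAP25 relative of non-neuronal secretion, had a log2 fold change of −0.03 with an interval from −0.21 to 0.15, and SNAP47 one of 0.13 with an interval from −0.10 to 0.36. SNAP25 itself, the neuronal form, was too low to be tested, with 15, 20 and 11 reads in siC and 6, 4 and 10 reads in siMSI1. These groups do not overlap, yet in a fit without the filter on low genes its adjusted p was 0.263 (limma).

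STXBP3 and STXBP5, regulators that bind syntaxins, did not pass the threshold. STXBP3 (Munc18c), the Sec1/Munc18 partner of STX4, had 8.68, 10.3 and 8.18 FPKM in the siC libraries, against 6.47, 7.69 and 5.71 FPKM upon knockdown, with no overlap and an adjusted p of 0.0402 (limma). STXBP5 (tomosyn), which competes with VAMP2 for syntaxin, had a log2 fold change of 0.49, and its adjusted p was 0.0622 (limma). STXBP2 had at most 8 reads in a library.

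**Figure D4:**
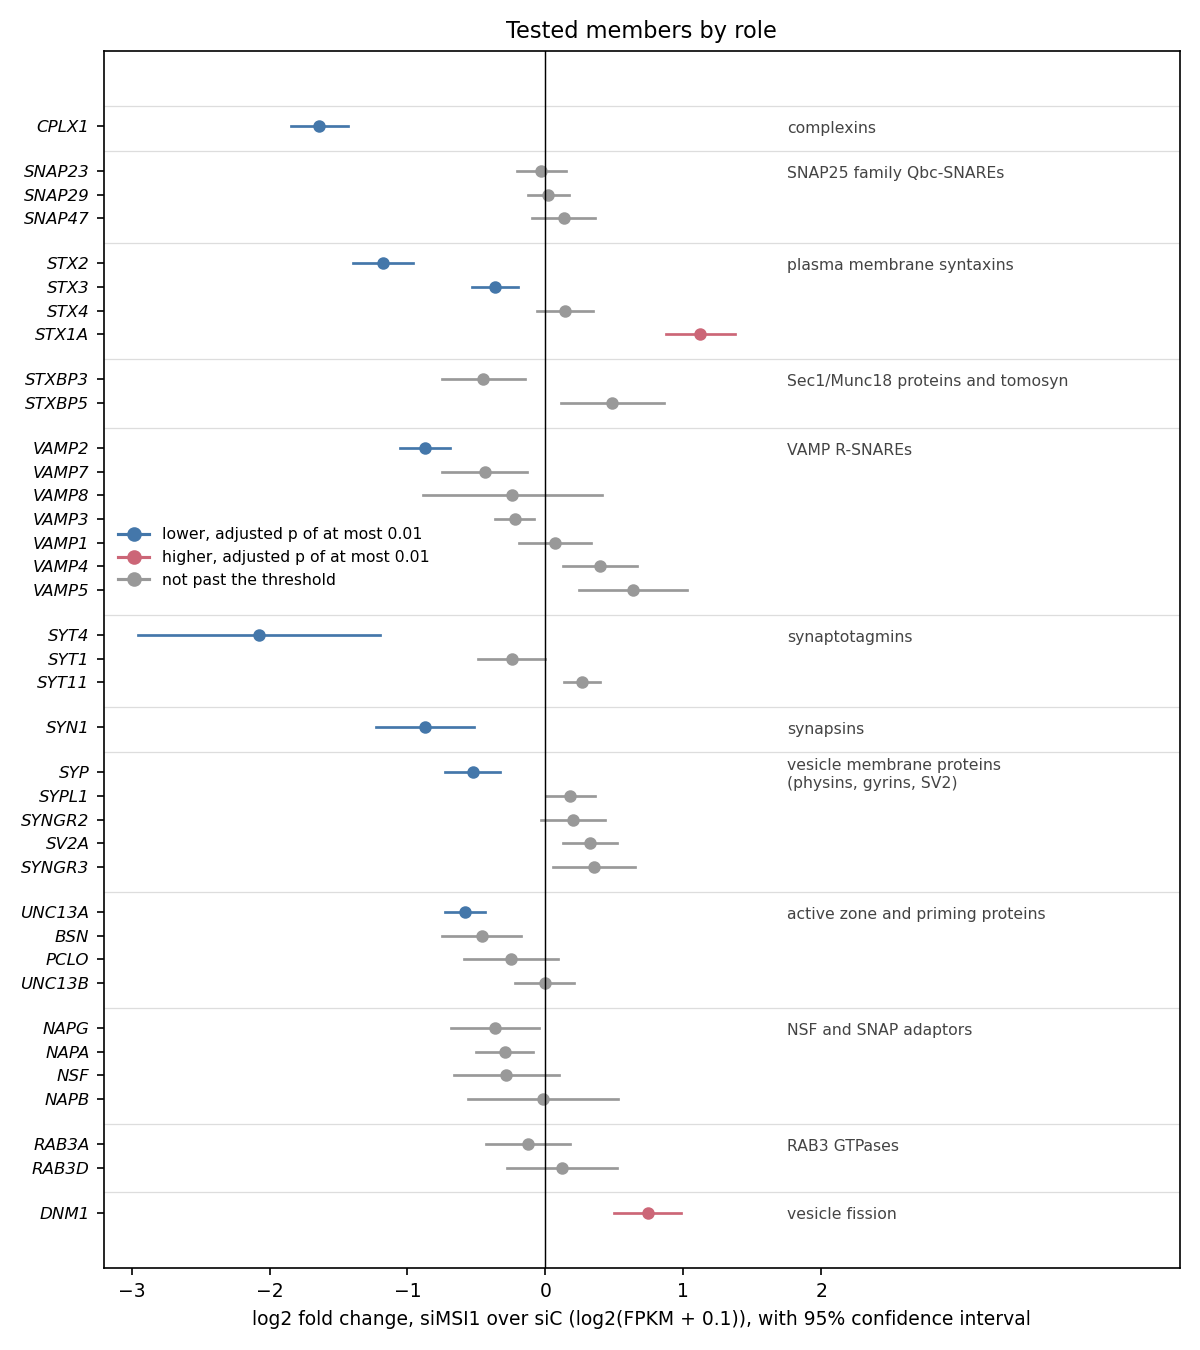
Log2 fold change of siMSI1 over siC for the 37 tested exocytosis genes on the scale of log2(FPKM + 0.1), grouped by role, with 95% confidence intervals as horizontal lines. Blue genes were lower and red genes higher at an adjusted p of at most 0.01 and grey genes did not pass, and STX1A at 1.12 and DNM1 at 0.74 are the 2 on the right.

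Synaptotagmins sense calcium or, like SYT4 and SYT11, lack calcium binding in part of their domains. SYT4 (ENSG00000132872, chr18:43267892-43277535, minus strand) was low in the controls, at 0.888, 0.934 and 0.893 FPKM, and lower still after knockdown, at 0.122, 0.189 and 0.110 FPKM. These levels rest on 57 to 75 reads per siC library and 7 to 11 reads per siMSI1 library, so the groups were far apart but the level in siMSI1 was near the floor of 3 reads. The log2 fold change was −2.08 ± 0.379 (SE; adjusted p = 0.00711, limma), and leaving out any 1 of the 6 libraries took the adjusted p above 0.01 (up to 0.0429). SYT4 reached the mean FPKM of 0.5 needed for the test only through its siC values, with 0.905 FPKM in siC, 0.140 FPKM in siMSI1 and 0.523 FPKM over all libraries. At its siMSI1 level in both groups, it would not have been tested. With 1 instead of 0.1 added before the logarithm, its log2 fold change was −0.74, against −1.62 for CPLX1 and −1.07 for STX2.

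SYT11 was the most abundant synaptotagmin and, unlike SYT4, was not lower. It stood at 54.7, 54.2 and 53.5 FPKM in control cells and at 63.8, 64.6 and 66.8 FPKM in siMSI1 cells. The 3 knockdown libraries were all above the controls, yet the log2 fold change of 0.27 missed the threshold (adjusted p = 0.0134, limma). SYT1, the calcium sensor of fast release, was at 4.08 ± 0.350 FPKM in siC and 3.43 ± 0.258 FPKM in siMSI1 (SD, n = 3 each; adjusted p = 0.132, limma). SYT5, SYT7 and SYT13 were below the level tested, with at most 28 reads in a library.

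SYN1 (ENSG00000008056, chrX:47571901-47619857, minus strand) encodes synapsin I, which tethers vesicles in the reserve pool. It had 2.15, 2.08 and 2.55 FPKM in the siC libraries, against 1.01, 1.32 and 1.24 FPKM upon knockdown. The groups did not overlap and the mean was 52.6% of the control, with a log2 fold change of −0.87 ± 0.154 (SE; adjusted p = 0.0062, limma). This call was lost when any 1 of the 6 libraries was left out, with adjusted p-values of up to 0.0264. TIMP1, at a mean of 79.7 FPKM over all libraries, lies within SYN1 on the opposite strand, with a log2 fold change of 0.39 (adjusted p = 0.0393, limma). SYN2 and SYN3 had at most 10 reads in a library.

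SYP (ENSG00000102003, chrX:49187815-49200218, minus strand), or synaptophysin, an abundant protein of the synaptic vesicle membrane, stood at 12.8, 12.3 and 13.6 FPKM in control cells and at 8.07, 9.54 and 9.20 FPKM in siMSI1 cells. All knockdown libraries lay below the controls, with a log2 fold change of −0.53 ± 0.085 (SE; adjusted p = 0.00433, limma), and the call was kept without siMSI1 replicate 2 or 3 and lost without any 1 of the other libraries (adjusted p up to 0.0231). Its broadly expressed relative SYPL1 had 47.8, 51.5 and 47.5 FPKM in the siC libraries, against 55.8, 59.6 and 51.2 FPKM upon knockdown, which overlap (adjusted p = 0.124, limma). SV2A, a vesicle glycoprotein and the target of the antiepileptic levetiracetam, was at a log2 fold change of 0.32 (adjusted p = 0.0285, limma). SYNGR2 and SYNGR3, synaptogyrins, had log2 fold changes of 0.20 and 0.35 with adjusted p-values of 0.188 and 0.0808 (limma). SYP thus fell from 11.2% ± 0.418 to 6.93% ± 0.417 of the summed FPKM of the physins, gyrins and SV2 genes (SD, n = 3 each).

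UNC13A (ENSG00000130477, chr19:17601336-17688365, minus strand), or Munc13-1, opens syntaxin and primes vesicles for release. It stood at 13.7, 13.3 and 13.8 FPKM in control cells and at 8.75, 9.16 and 9.21 FPKM in siMSI1 cells. Both groups were tight, and the log2 fold change of −0.58 ± 0.064 (SE; adjusted p = 0.000922, limma) passed in every fit that left out a library. Its paralog UNC13B was at 4.47 ± 0.263 FPKM in siC and 4.46 ± 0.287 FPKM in siMSI1 (SD, n = 3 each), with an interval of the log2 fold change from −0.22 to 0.21.

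The scaffolds of the active zone were low. BSN (bassoon) was at 2.32 ± 0.0636 FPKM in siC and 1.66 ± 0.168 FPKM in siMSI1 (SD, n = 3 each), with a log2 fold change of −0.46 and an adjusted p of 0.0299, and PCLO (piccolo) had one of −0.25 with an adjusted p of 0.261 (limma). RIMS2 and RIMS3, of the RIM family that links vesicles to calcium channels, were below the level tested, but neither overlapped between the groups. Their siC means of 0.543 and 0.606 FPKM were above the 0.5 FPKM needed. Their siMSI1 means of 0.332 and 0.237 FPKM took the mean over all libraries below it. RIMS3 had 57, 91 and 62 reads in siC and 20, 26 and 26 reads in siMSI1, which is 39.2% of the control by mean FPKM. RIMS2 had 119, 142 and 92 reads in siC and 73, 68 and 49 reads in siMSI1, or 61.1% by mean FPKM. In the fit without the filter, their adjusted p-values were 0.0433 and 0.221 (limma). RIMS1 was at 0.

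NSF, the ATPase that disassembles SNARE complexes, and its adaptors NAPA, NAPB and NAPG did not pass the threshold. NAPA was the most abundant, at 15.1, 14.2 and 16.0 FPKM in siC and 11.5, 11.8 and 13.6 FPKM in siMSI1, with no overlap (log2 fold change −0.30, adjusted p = 0.0434, limma). The antisense gene on its opposite strand rose by 1.02 on the log2 scale (adjusted p = 0.00454, limma). NSF, NAPG and NAPB had log2 fold changes of −0.28, −0.36 and −0.02. RAB3A, the vesicle GTPase that binds RIM, had 4.92, 4.62 and 5.66 FPKM in the siC libraries, against 5.00, 3.86 and 5.09 FPKM upon knockdown, and RAB3D, its relative on secretory granules, was at 1.38 ± 0.0736 and 1.52 ± 0.288 FPKM (SD, n = 3 each), both with overlap between the groups. RAB3B had at most 7 reads in a library.

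DNM1 (ENSG00000106976, chr9:128191655-128255248, plus strand), the neuronal dynamin that pinches off vesicles when membrane is retrieved, was the other gene that rose. It stood at 1.80, 1.95 and 1.92 FPKM in control cells and at 3.40, 3.08 and 3.21 FPKM in siMSI1 cells, with no overlap. The log2 fold change was 0.74 ± 0.104 (SE; adjusted p = 0.00246, limma), and it was lost without siC replicate 1 or siMSI1 replicate 1 (adjusted p up to 0.0155). CIZ1 overlaps DNM1 on the opposite strand, with a log2 fold change of −0.04 (adjusted p = 0.769, limma).

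Of the 17 genes that were not tested, 4 (CPLX3, CPLX4, RIMS1 and SV2B) were at 0 in all libraries, SV2C and SYT13 had at most 1 read and SYN3 at most 3 reads in a library, and the other 10 exceeded 3 reads in at least 1 library. SNAP25, RIMS2 and RIMS3 were the 3 whose groups did not overlap. In the fit without a filter, which holds 13 of the 17, 0 passed the threshold and 2, RIMS2 and RIMS3, had an unadjusted p under 0.05 (limma). At this depth a small change was not detectable in the 7 genes with at most 3 reads per library.

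Other genes of secretion and vesicle traffic, together with those of the REST repressor complex, made up 6 lists with 135 genes. Of the 88 tested, with a median log2 fold change of −0.05, 5 passed the threshold (5.68%), where 11% of all tested genes did. That count was 9 without siMSI1 replicate 3, 3 without siC replicate 2 and 2 without any 1 of the other libraries, and its difference from the count of the exocytosis genes was not tested. Of 25 tested neuronal exocytosis genes outside the 54, among them the liprins PPFIA1 to PPFIA3, SYT14 and RAB27A, 0 passed (limma), while 10 had an unadjusted p under 0.05 and 3 were called by voom. Voom called 2690 of all 15069 tested genes, and the share of these at an unadjusted p under 0.05 (limma) was not counted. Such p-values were common over all tested genes, since 0.04999 (the endocytosis gene AP2A1) went with an adjusted p of only 0.131 (limma). Of 26 tested endocytosis genes, SH3GL1 (endophilin A2), which bends membranes, fell from 83.3, 77.7 and 86.4 FPKM in siC to 41.0, 40.9 and 49.7 FPKM in siMSI1 (adjusted p = 0.00067, limma). EPS15, a clathrin adaptor, fell from 5.20, 4.93 and 4.63 FPKM to 3.56, 3.66 and 3.22 FPKM (adjusted p = 0.00895, limma). Of 8 tested genes of dense-core granules, the carriers of peptide cargo, 4 lay below 0 and 4 above. SCG3, which sorts granins, fell from 9.28, 9.40 and 7.44 FPKM to 2.78, 2.65 and 2.48 FPKM, and the granin SCG2 from 21.9, 20.4 and 19.6 FPKM to 16.1, 16.1 and 15.5 FPKM (adjusted p = 0.000247 and 0.00694, limma). The summed level of the granule genes went the other way, at 228.0 to 249.7 FPKM in siC and 262.3 to 304.6 FPKM in siMSI1. Its most abundant gene PCSK1N (named after its values were seen), which encodes proSAAS, was at 181.9 ± 12.8 FPKM in siC and 226.2 ± 25.6 FPKM in siMSI1 (SD, n = 3 each) and was called by voom but not by the test used here (adjusted p = 0.0496, limma). SCG3 thus had a log2 fold change of −1.68, near the −1.64 of CPLX1. SCG3 and SH3GL1 passed in each of the 6 fits without 1 library, while EPS15 and SCG2 passed in 0 of them (adjusted p up to 0.0486 and 0.0416, limma).

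Among 21 tested SNAREs of the Golgi, the ER and endosomes, STX6 rose from 7.40, 7.47 and 6.997 FPKM to 10.5, 10.4 and 10.0 FPKM (adjusted p = 0.00235, limma) and passed in 2 of the 6 fits without 1 library. The 1 vesicular transmitter transporter that was tested did not pass and had a log2 fold change of 0.11. Of the 7 tested genes of the REST repressor complex, 0 passed by limma or voom and 1, HDAC1, had an unadjusted p under 0.05, with log2 fold changes of −0.17 to 0.20.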

How the data were processed

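The authors clipped reads with Cutadapt 1.14, aligned them to GRCh38 with HISAT2 2.1.0 and SAMtools 1.5, summarized them per gene with featureCounts 1.5.3 on Ensembl release 89, and deposited FPKM values per library with their own fold changes and p-values (edgeR 3.18.1, TMM), which were not used. Library preparation was strand-specific per the labels, but whether counting used the strand is not given in the sources used here. The 6 libraries were grouped by the labels. Here, genes whose mean FPKM reached 0.5 (15069) were fitted with limma 3.58.1 (R 4.3.3) on log2(FPKM + 0.1), using lmFit and eBayes (trend and robust), with Benjamini-Hochberg adjustment over these genes and a threshold of 0.01. The reads behind each value were recovered from FPKM and gene length, which gave whole reads for 100% of values within 0.01 read, and summed to 13087025 to 18024080 per library. Floors of 3 reads cover counting error only. No pair of libraries was a duplicate. The fit was tested on simulated data. Gene positions and 3′UTRs came from GENCODE release 44 (98.7% of identifiers found) and upstream windows from RefSeq. Values per library are given for each changed gene and for the most abundant gene of each role, and from the related lists for up to 3 changed genes with the largest change. The genes and lists were chosen with earlier results of these data known, so no test was made over a list. Alternatives changed the added value, filter, scaling, moderation, threshold, block, test (voom on recovered reads) and libraries. Python 3.11.15, numpy 2.4.6, pandas 2.3.3 and matplotlib 3.10.9 were used for the rest.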

Additional observations from a re-analysis of the deposited data

How the results depend on the processing

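The 10 changed exocytosis genes gave 199 comparisons with alternatives, of which 163 kept the direction and the call, 36 kept the direction without the call and 0 reversed. The losses fell on STX3, SYT4, SYN1, SYP and DNM1. The count of 10 became 16 with voom on the recovered reads and median-of-ratios size factors, 24 with voom and a replicate block, 19 at an adjusted p of 0.05, and 20 with a correction for GC content, which was chosen after seeing the data. It was 5 to 7 when 1 library was left out. Over all genes, the count of 1655 became 792 without a filter on low genes, 847 with plain eBayes, 2690 and 2867 with voom (sum of reads or median of ratios as library size), 4870 with voom and a replicate block, 3156 with the GC correction and 3787 at an adjusted p of 0.05, and 528 to 1603 when 1 library was left out, with 528 without siC replicate 1. Among the related lists the count of 5 became 3 without a filter and with plain eBayes, 9 with a replicate block, 11 with either voom, 29 with voom and the block, 16 with the GC correction, 12 with the GC correction and the block (also chosen after seeing the data), 17 at an adjusted p of 0.05, and 2 to 9 when 1 library was left out, with 9 without siMSI1 replicate 3. The cause of these differences was not tested. Reversals occurred in 4 genes near 0 that never passed, mostly when 1 library was left out. The log2 fold change of SNAP23 then ran from −0.0749 to 0.0144 (above 0 without siC replicate 2 or siMSI1 replicate 3), that of SNAP29 from −0.0089 to 0.0554 (below 0 without siC replicate 1 or siMSI1 replicate 2), that of UNC13B from −0.0462 to 0.0464 (above 0 without siC replicate 1 or siMSI1 replicate 2) and that of NAPB from −0.203 to 0.254 (above 0 without siC replicate 2 or siMSI1 replicate 3). UNC13B was also at 0.0063 after centring and 0.0114 after quantile normalization, and NAPB at 0.0305 with voom and the block.

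The replicate numbers do not mark pairs in the labels, so the block was not part of the test. The deviations of same-numbered libraries from their group means correlated at −0.0661, 0.0783 and 0.083 across genes. Those of libraries with different numbers correlated at −0.144 to 0.07. With the block added to the fit used here, 12 exocytosis genes passed, of which 9 were among the 10, and 2250 of all genes. The few reads of SYT4, VAMP8 and most of the 17 untested genes limit what could be detected, while RIMS2, with 49 to 142 reads per library, was left out by its FPKM and not by its reads.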

Other observations

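MSI1 is known to bind UAG in the 3′UTR of mRNAs, so the density of these letters was counted on the mRNA strand in the 3′UTRs of GENCODE release 44. Over 11259 tested protein-coding genes, the median 3′UTR held 1356 bases and 11.2 UAG per kb. The 37 tested exocytosis genes had a median of 1696 bases and 10.3 UAG per kb. The 8 genes that fell had 10.1 UAG per kb (3.12 in SYN1 to 13.5 in SYT4), the 2 that rose had 3.77 (DNM1) and 4.18 (STX1A), and the 27 that did not pass had 12.3. CPLX1, the most abundant of the genes that fell, had 10 UAG in 1544 bases, or 6.48 per kb, and VAMP5, with the shortest 3′UTR of the tested exocytosis genes at 249 bases, had 0. These are counts of letters, with no test, and binding was not measured.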
